A study of Mus musculus with 6 samples.

Results

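The Art genes encode the mammalian relatives of clostridial toxins that carry an ADP-ribosyltransferase fold and act outside the cell or on its surface. The family on this array was taken as every probe whose deposited gene symbol was Art1, Art2a, Art2b, Art3, Art4 or Art5, which gave 6 of 31508 symbols and 10 of 45281 probes. The family was picked because Art1 was lower in knockout testis than in both other genotypes, so the Art1 values in those comparisons are given as a description with no test. The other members entered by name.

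RNA came from whole testis of 8-week-old C57BL6J mice in 3 groups of 2 mice. The knockouts (KO, H3f3b -/-) lacked both alleles of H3f3b, the heterozygotes (HET, H3f3b WT/-) lacked 1, and the wild types (WT, H3f3b WT/WT) lacked none. The deleted allele came from a floxed one (H3f3b Fl/Fl) recombined in growing oocytes by the Zp3Cre transgene, so the KO and HET mice carried it in every cell. Each genotype was present once in each of 2 litters, and a mouse gave RNA from a single testis and 1 Illumina bead array. H3f3b and H3f3a both encode the replacement histone H3.3. One label gives the age as E12.5 where others give 8 weeks, and the spermatid transcript Tnp1, at a deposited signal of 17553 to 22407 on every array, is a mark of adult testis. H3f3b itself was at a deposited signal of 96.6 and 93.0 in KO, 2377.1 and 1833.5 in HET, and 3810.8 and 3535.3 in WT (the mouse of litter 1 first), so every array carried the signal of its labelled genotype. In RNA of whole tissue, fewer cells of a type and less RNA per cell cannot be told apart.

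Mono-ADP-ribosyltransferases of this family move the ADP-ribose unit of NAD+ onto arginine in target proteins, and most are held on the outer membrane by a GPI anchor. ART1 is best known from skeletal and heart muscle, where it modifies surface integrins. The Art2 enzymes sit on T cells and modify the ATP receptor P2X7. ART4 carries the Dombrock blood group in people. ART3 is known from human testis and lacks the active-site motif of the enzymes, and Art5 is known from mouse testis. Per RefSeq, Art1, Art2a, Art2b and Art5 lie on chromosome 7, Art3 on chromosome 5 and Art4 on chromosome 6, and Art2a is annotated as a transcribed pseudogene.

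Art1 and Art5 are direct neighbours, read from opposite strands and away from each other. Their start sites in the RefSeq promoter table lie 1514 bases apart. Their promoter windows are shown because Art1 is the gene for which the family was picked and Art5 lies beside it. Each window holds 250 bases before the start and 50 from it on, 5′ to 3′ on the gene's own strand (RefSeq, GRCm38.p6), at chr7:102101493-102101792 on the plus strand for Art1 and at chr7:102100180-102100479 on the minus strand for Art5. Capitals mark matches on either strand to TATAAA (the TATA box), TGACGTCA (the cAMP response element bound by the CREM factor of spermatids), ATGCAAAT (the octamer bound by POU factors) and CACGTG (an E-box).
Art1: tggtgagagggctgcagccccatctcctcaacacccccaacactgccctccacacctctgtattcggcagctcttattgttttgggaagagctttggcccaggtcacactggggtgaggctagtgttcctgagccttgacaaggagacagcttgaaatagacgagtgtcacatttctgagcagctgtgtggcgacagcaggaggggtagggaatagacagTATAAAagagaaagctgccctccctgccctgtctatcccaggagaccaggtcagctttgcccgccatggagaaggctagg
Art5: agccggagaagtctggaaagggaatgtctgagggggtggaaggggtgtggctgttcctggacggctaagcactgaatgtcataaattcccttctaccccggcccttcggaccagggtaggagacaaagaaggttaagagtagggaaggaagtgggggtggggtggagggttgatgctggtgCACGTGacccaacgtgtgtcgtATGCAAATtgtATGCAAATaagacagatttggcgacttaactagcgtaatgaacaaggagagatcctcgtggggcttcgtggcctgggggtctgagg

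The motifs were chosen after the sequences were read, and a match is a description only. The Art1 window held TATAAA, with its first base 30 bases before the start. The Art5 window held ATGCAAAT at 47 and 36 bases before the start and CACGTG at 69 bases before it, with no overlap between matches. Neither window held TGACGTCA. Over 32851 RefSeq windows of the same length, 13.6% held TATAAA, 1.74% held ATGCAAAT (0.107% at least 2 of them), 7.15% held CACGTG and 1.79% held TGACGTCA. Promoter windows were found for 5 of the 6 genes, with 3 windows for Art3. Window 2 of Art3 also held TATAAA with its first base 30 bases before the start.

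Detection separated the family. A probe was counted as detected on an array where its deposited detection p-value was under 0.05, and 5 of the 10 probes were detected on all 6 arrays: 1 of 3 for Art1, 2 of 3 for Art3, and the single probes of Art4 and Art5. No member passed the filter on dim probes through 1 genotype alone. The single probes of Art2a and Art2b and the other Art1 probes, 4 in all, were detected on 0 arrays, and the dimmest Art3 probe was detected on 1 array. Below, probes of a gene are numbered from the brightest, and levels are log2 normalized signals after background correction and quantile normalization.

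**Figure D1:**
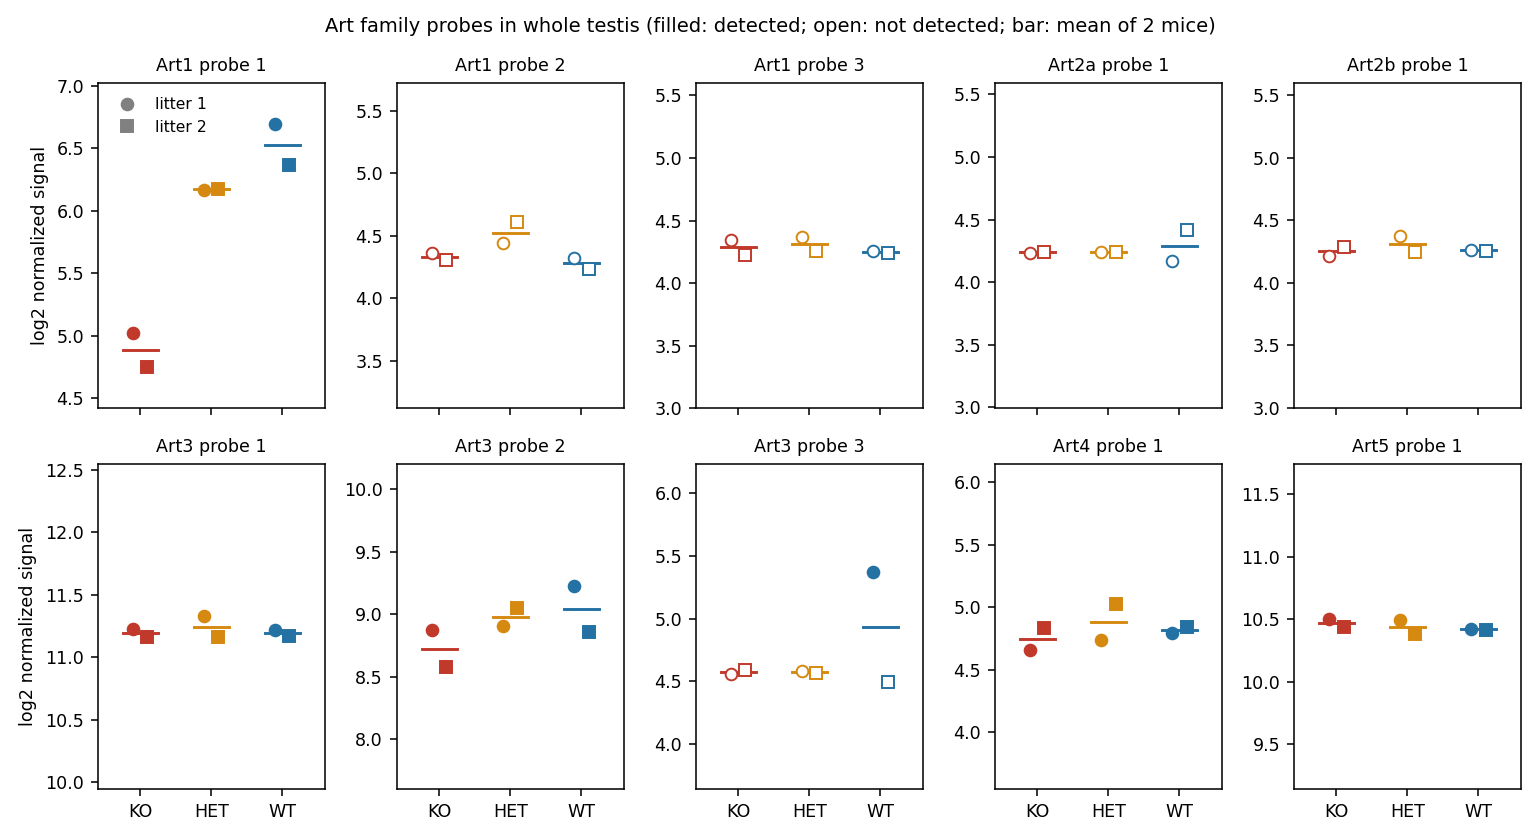
Log2 normalized signal (y axis, 2.6 log2 units tall in every panel) of the 10 Art family probes in KO, HET and WT testes (x axis). Each point is 1 mouse, circles are litter 1 and squares litter 2, filled points are detected and open points not detected, and each bar is the mean of 2 mice. Art1 probe 1 is low in both KO mice (5.03 and 4.75), while Art3 probe 1 and Art5 stay near 11.19 and 10.4.

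Art1, the arginine-specific enzyme known from muscle, was low in both KO testes. Its deposited signal was 111.1 and 105.5 in KO, 153.6 and 138.3 in HET, and 174.6 and 158.3 in WT. The KO values were the lowest and the WT values the highest, with HET between them in each litter. The transcript was dim in every mouse. Above the median signal of undetected probes on the same array it stood at 19.1 and 11.7 units in KO, 58.9 and 47.9 in HET, and 84.6 and 62.4 in WT. The detection p-values in KO were 0.00855 and 0.0224, and in HET and WT each was listed as 0.

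On the log2 scale Art1 was at 5.03 and 4.75 in KO, 6.17 and 6.17 in HET, and 6.69 and 6.37 in WT. No genotype overlapped another at this probe. It averaged 4.89 ± 0.19 in KO, 6.17 ± 0.0053 in HET and 6.53 ± 0.23 in WT (SD, n = 2 each). The log2 difference was -1.64 for KO minus WT, with -1.66 within litter 1 and -1.62 within litter 2. For KO minus HET it was -1.28, with -1.14 in litter 1 and -1.42 in litter 2. These comparisons chose the gene, share the KO arrays and carry no test. For comparison, 2 mice of each genotype did not overlap at 56.9% of the 20573 probes that passed the filter in KO against WT (25.6% with KO lower), at 52% in KO against HET (24% with KO lower) and at 40% in HET against WT (19% with HET lower). The full order of KO below HET below WT in all 6 mice was found at 5.33% of them.

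The size of the Art1 difference rested on how background was removed. On the deposited linear scale the mean signal was 108.3 in KO and 166.5 in WT, a ratio of 0.651. KO minus WT came to -0.67 without background correction, -0.99 with a larger offset of 50 in the normexp background model and -0.62 with the authors' scaled values. KO minus HET came to -0.48, -0.74 and -0.48 under the same choices. The sign stayed negative under all 15 alternatives for both comparisons. Those that changed the filter, the variance trend or the litter block repeat the reported differences, so their sign was fixed in advance. Leaving out 1 mouse at a time gave -1.81 to -1.48 for KO minus WT.

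The rule did not use HET against WT. Art1 was 0.36 lower in HET on the log2 scale (SE 0.16, 95% interval -0.72 to 0.0042), with -0.52 within litter 1 and -0.19 within litter 2. It missed the threshold after adjustment (limma adjusted p = 0.569, unadjusted 0.0522). Without the WT mouse of litter 1 it was -0.20. This comparison shares its arrays with those that chose the gene.

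The other Art1 probes lay at background in every mouse. Probe 2 had deposited signals of 94.3 and 93.9 in KO, 99.3 and 97.5 in HET, and 90.6 and 92.4 in WT. Probe 3 had 93.8 and 90.1 in KO, 97.0 and 88.6 in HET, and 87.9 and 92.6 in WT. These values lay about the medians of undetected probes, which ran from 90.0 to 95.9 over the 6 arrays, so no order is read from them. The positions of the 3 probes in the transcript are not in the files, so whether they read different transcripts of Art1 was not tested.

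Art5, the neighbour of Art1, was bright in all 6 testes. Its deposited signal was 1576.4 and 1475 in KO, 1590.7 and 1236.9 in HET, and 1509.3 and 1428.6 in WT. The HET mouse of litter 2, whose array had the lowest summed signal, gave the lowest value. After normalization Art5 was at 10.50 and 10.44 in KO, 10.50 and 10.38 in HET, and 10.42 and 10.41 in WT. Both KO mice lay just above both WT mice, by less than 0.1. KO and WT did not overlap, in either direction, at 56.9% of all kept probes. The KO minus WT difference of 0.050 (SE 0.13) had a 95% interval of -0.24 to 0.34 and did not pass the test (limma adjusted p = 0.835). KO minus HET was 0.030 (-0.26 to 0.32; limma adjusted p = 0.922) and HET minus WT was 0.020 (-0.27 to 0.31; limma adjusted p = 0.984).

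Art3, the testis member without the active-site motif, was also bright. Probe 1 had deposited signals of 2507.2 and 2351.8 in KO, 2817.3 and 2102.6 in HET, and 2580.6 and 2393 in WT. On the log2 scale this probe was at 11.22 and 11.16 in KO, 11.33 and 11.16 in HET, and 11.21 and 11.17 in WT. The genotypes overlapped. KO minus WT was 0.0011 (95% interval -0.30 to 0.30; limma adjusted p = 0.996), KO minus HET was -0.053 (limma adjusted p = 0.859) and HET minus WT was 0.054 (limma adjusted p = 0.944).

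Art3 probe 2 leaned lower in KO without passing the test. It was at 8.87 and 8.58 in KO, 8.91 and 9.05 in HET, and 9.22 and 8.86 in WT. The KO mouse of litter 1 lay above the WT mouse of litter 2, so KO and WT overlapped. Both KO mice lay below both HET mice, as they did at 24% of all kept probes. KO minus WT was -0.32 (95% interval -0.70 to 0.066; limma adjusted p = 0.258), with -0.35 in litter 1 and -0.28 in litter 2. KO minus HET was -0.26 (-0.64 to 0.13; limma adjusted p = 0.438). HET minus WT was -0.061 (limma adjusted p = 0.952), with opposite signs in the litters. Probe 3 was detected only in the WT mouse of litter 1, where its deposited signal of 114.8 stood against 96.7 to 102.7 in the other 5 mice. Whether the Art3 probes differ from each other, and which transcripts they read, was not tested.

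Art4, the blood group carrier, was detected on every array but only just. Its deposited signal was 102.4 and 107.3 in KO, 106 and 105 in HET, and 101.6 and 108.1 in WT, with detection p-values from 0.00962 to 0.0331. The genotypes overlapped. On the log2 scale KO minus WT was -0.074 (95% interval -0.41 to 0.26; limma adjusted p = 0.780), KO minus HET was -0.14 (limma adjusted p = 0.649) and HET minus WT was 0.063 (limma adjusted p = 0.941). Red blood cell markers, whose cells carry the human protein, did not move by the test in any comparison (0 of 4 kept genes). In KO against WT 2.64% of all genes were called higher and 4.93% lower. The called share was 0.138% in KO against HET and 0% in HET against WT. Among these 4 markers Hbb-b1, a beta globin gene, differed by -0.86 in KO against HET and by -0.47 in KO against WT (limma adjusted p = 0.0826 and 0.119). In each of these comparisons 1 of the 4 was positive, at 0.15 and 0.032. The lowest difference in KO against HET, -0.90, was at another of the 4. The list's median was -0.53 in KO against HET, -0.31 in KO against WT and 0.31 in HET against WT.

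Art2a and Art2b, the T cell enzymes, were not detected in any testis. The Art2a probe had deposited signals of 88.8 and 90.8 in KO, 91.8 and 87.7 in HET, and 81.5 and 99.3 in WT. The Art2b probe had 87.6 and 93.0 in KO, 97.2 and 87.9 in HET, and 88.1 and 93.4 in WT. All 12 values carried detection p-values of 0.197 or more. No fold is given for these genes. They are close copies of each other, and which of them a probe reads was not tested. Of 12 T cell markers on the array, 5 were detected on all 6 arrays (Cd3d, Cd4, Cd8b1, Lck and Zap70) and 4 on 0 arrays (Cd3g, Cd2, Cd8a and Lat). Of 7 kept genes of that list, read at each gene's brightest kept probe, 1 rose and 0 fell in KO against WT, where 2.64% of all 14532 genes so read were called higher and 4.93% lower. It was the kinase gene Lck (1.33, limma adjusted p = 0.010, and 0.0803 at the highest when 1 mouse was left out).

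Among the 4 detected probes other than that of Art1, 0 passed the test in KO against WT, where 6.86% of all 20573 kept probes were called (limma, Benjamini-Hochberg). Of those 1412 calls 32.6% were higher in KO, against 58.4% with median scaling and 68.4% with the series matrix values, so their balance turned with the scaling, and 23.2% with cyclic loess. The count of 1412 fell when any 1 mouse was left out, also a HET mouse. Such a fit keeps 1 mouse in a group and has fewer degrees of freedom. The fall therefore cannot show whether the calls rested on particular mice. In KO against HET 0 of 4 passed against 0.112% of all kept probes (23, or 65 with litter as a block). In HET against WT 0 of all 5 detected Art probes passed, as did 0% of all kept probes by limma, of which 1820 had an unadjusted p under 0.05. The largest of these 4 differences was the -0.32 of Art3 probe 2. The median difference over all kept probes was 0.041 in KO against WT.

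**Figure D2:**
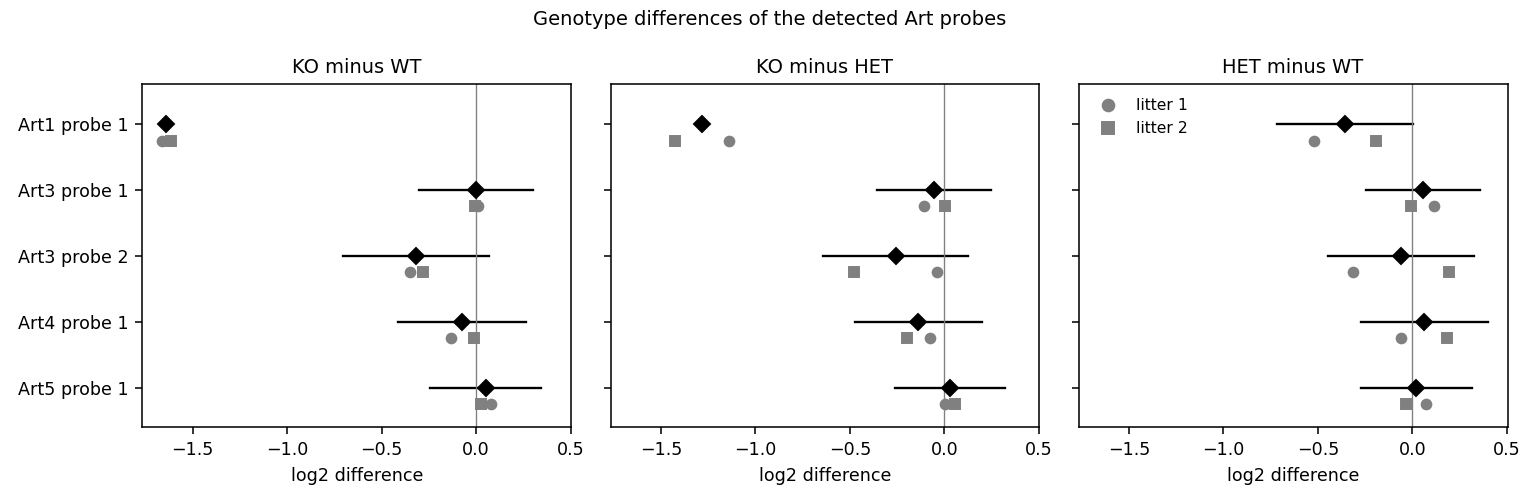
Log2 differences between genotypes (x axis) for the 5 Art probes detected on all arrays (y axis), in 3 panels for KO minus WT, KO minus HET and HET minus WT. Diamonds are differences of means of 2 mice, black lines are 95% intervals of the limma fit (none for Art1 where the comparison chose it), and grey circles and squares are the differences within litters 1 and 2. Art1 lies at -1.64 and -1.28 in the KO panels, and the lines of the other probes all cross 0.

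The genes around Art1 on chromosome 7 were measured to see whether the low Art1 signal extended to its neighbours. Of the 5 protein-coding genes on each side, 8 were on the array and 7 had a kept probe, with 16 kept probes in all. None of the 16 passed the test in KO against WT (limma, smallest adjusted p = 0.120), where 6.86% of all 20573 kept probes were called. Their differences ran from -0.37 to 0.41. The lowest was at the dimmest of 3 probes of Pgap2 (deposited as Frag1), which acts in the remodelling of GPI anchors, at -0.37 (95% interval -0.67 to -0.062), while its other probes were at -0.17 each. The highest was at the brightest of 3 probes of Stim1, the calcium sensor of the endoplasmic reticulum, at 0.41 (0.052 to 0.78; limma adjusted p = 0.135). The kept probes of Nup98, a nuclear pore gene, went both ways, from -0.28 to 0.37. The -0.28 was at a probe deposited as AI849286, and those deposited as Nup98 ran from 0.018 to 0.37. Chrna10, a nicotinic receptor subunit gene on the far side of Art1 from Art5, had no kept probe. In KO against HET and in HET against WT 0 of the 16 probes were called (smallest limma adjusted p = 0.318 and 0.468). Of all kept probes, 0.112% and 0% were called there.

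**Figure D3:**
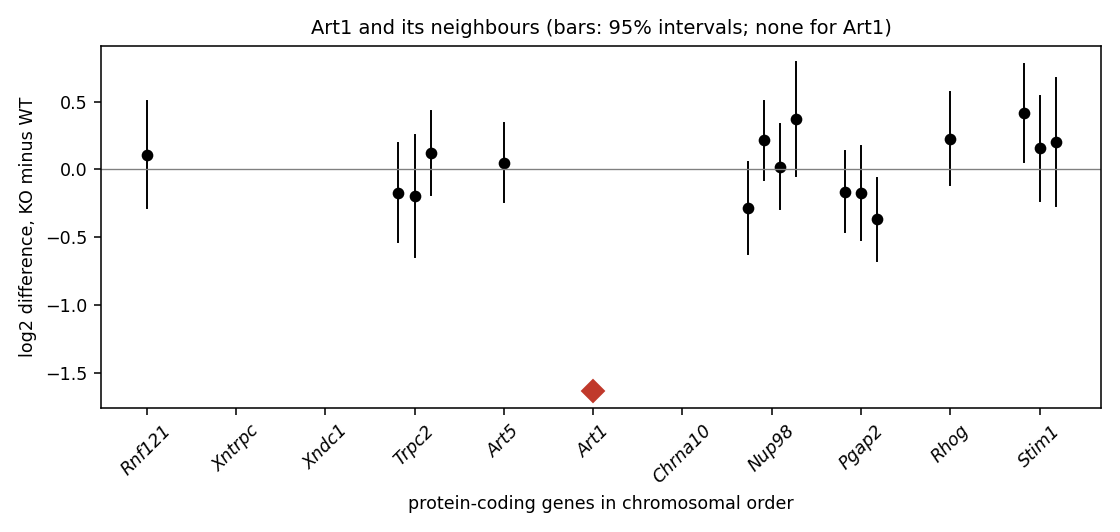
Log2 difference of KO minus WT (y axis) for Art1 (red diamond) and for every kept probe of its 5 protein-coding neighbours on each side, in chromosomal order (x axis), with 95% intervals of the limma fit as lines. The neighbours lie between -0.37 and 0.41, and Art1 at -1.64, with no interval because it was chosen on this comparison; Xntrpc and Xndc1 had no probe on the array and Chrna10 no kept probe.

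The genes whose profile over the 6 arrays lay nearest to that of Art1 were found by the Euclidean distance between log2 values centred on each probe's mean, over 20572 other kept probes whose median distance was 1.82. The nearest was the uncharacterised transcript 4930455F16Rik (distance 0.275), at 7.92 and 7.48 in KO, 8.95 and 8.97 in HET, and 9.35 and 9.37 in WT. Next came Rundc3a (deposited as Rap2ip; 0.352), LOC381396 (0.397), 1700096P03Rik (0.415) and Hspbap1, which encodes a partner of a small heat shock protein (0.468). All 5 were low in both KO mice, with KO minus WT between -1.66 and -1.39 and HET minus WT between -0.56 and -0.15. These genes were picked for this pattern, so the values are a description. None belongs to the Art family.

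**Figure D4:**
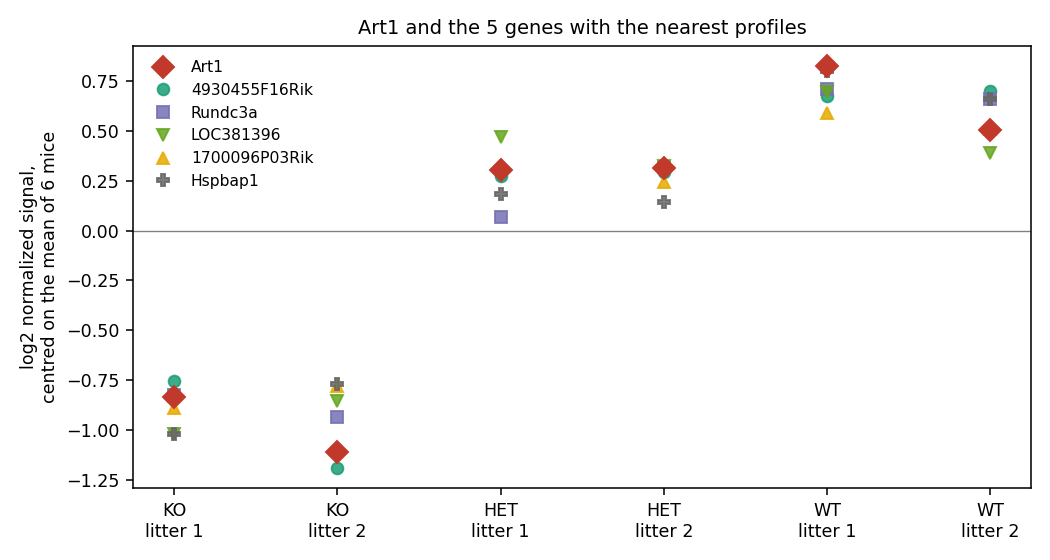
Log2 normalized signal centred on each probe's mean over 6 mice (y axis) in each mouse (x axis, KO, HET and WT by litter) for Art1 (red diamonds) and the 5 genes with the nearest profiles. All 6 genes lie below 0 in both KO mice and above 0 in the HET and WT mice.

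Other genes that use or remove ADP-ribose were read from lists in the same way, against the same 2.64% of genes called higher and 4.93% called lower in KO against WT. Of 11 kept genes for the intracellular ADP-ribosyl polymerases, 1 rose and 0 fell, with a median of 0.24. The rise was in Tnks2 (deposited as 5430432P15Rik), a tankyrase, which averaged 8.12 in KO and 7.58 in WT (0.55, limma adjusted p = 0.0436). Leaving out any 1 mouse ended this call (limma adjusted p 0.0654 to 0.163). Of 5 kept genes that remove ADP-ribose 0 were called. Among them Adprh, the hydrolase that cleaves ADP-ribose from arginine and so undoes the reaction of Art1, averaged 10.43 in KO and 10.10 in WT (0.33, limma adjusted p = 0.208), and the macrodomain gene Macrod1 differed by -0.47 (limma adjusted p = 0.0861).

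Of 13 kept genes for NAD synthesis and NAD-consuming enzymes, 1 fell and 0 rose in KO against WT. The fall was in Sirt4, a mitochondrial sirtuin, which averaged 7.02 in KO and 7.64 in WT (-0.62, limma adjusted p = 0.0397). Leaving out 1 mouse ended this call in 5 of 6 cases (limma adjusted p 0.0494 to 0.156). The surface NAD glycohydrolase genes Cd38 and Bst1, which compete for the same substrate as the Art enzymes, did not pass the filter on dim probes. Of 7 kept genes for known or proposed targets of Art enzymes 0 were called. Itga7, the muscle integrin modified by ART1, was at 5.92 in KO and 5.80 in WT (0.12, limma adjusted p = 0.659), and P2rx7, the target of Art2, differed by 0.28 (limma adjusted p = 0.343). In KO against HET, where 0.138% of genes were called, and in HET against WT, where 0% were, 0 genes of these lists passed the test.

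Since Art1 is known from muscle, skeletal muscle markers were read beside it. Of 18 on the array, 6 were detected on all 6 arrays (Mylpf, Myl1, Tnnc2, Actn3, Atp2a1 and Ryr1) and 7 on 0 arrays, among them Acta1, Ckm, Myh1, Myh2 and Myh4, which encode the actin, the creatine kinase and the fast myosins of muscle fibres. The summed signal of the list above the undetected median was 274.8 and 225.4 units in KO, 198.3 and 213.4 in HET, and 205.4 and 189.5 in WT. Of 7 kept genes 0 were called in any comparison, and in KO against WT they went both ways, from -0.44 at Pvalb to 0.56 at Myl1. In KO against WT 2.64% of all genes were called higher and 4.93% lower. The called share was 0.138% in KO against HET and 0% in HET against WT. The part of muscle RNA in the Art1 values was not tested.

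Markers of some testis cell types differed between KO and WT, where 2.64% of all genes were called higher and 4.93% lower, while 0 genes of any marker list were called in KO against HET or in HET against WT (limma). Of 9 kept Sertoli cell markers, 5 rose and 0 fell in KO against WT, led by Inha (0.77), Clu (0.63), Dhh (0.66) and Cldn11 (0.59). Their summed signal was 23244 and 23729 units in KO, 18778 and 15472 in HET, and 16301 and 15796 in WT. Of 10 kept spermatid markers 0 were called, all 10 differences were negative with a median of -0.21, and their sum was 120722 and 121113 in KO, 133808 and 117981 in HET, and 133693 and 139498 in WT. Of 9 kept spermatocyte markers 0 were called, with a median of 0.18. Of 6 kept Leydig cell markers 1 rose, the androgen synthesis gene Cyp17a1 (0.76, limma adjusted p = 0.0470). The median of the Leydig list was 0.37 in KO against WT, where 1 of the 6 was negative, 0.60 in KO against HET and -0.18 in HET against WT. Of 7 kept macrophage markers, Mrc1 (0.58) and Fcgr3 (0.71) rose and 0 fell. Of 3 kept epididymis markers, all of them defensin genes, Defb30 (-0.97) and Defb21 (-0.58) fell, while Defb20 went the other way uncalled, at 0.20. Of 9 epididymis markers on the array, 4 were detected on 0 arrays, Lcn5 and Adam7 on 1, and only these 3 defensin genes on all. Whether the falls reflect epididymis RNA was not tested. Each of these 10 calls was lost when any 1 of the KO or WT mice was left out (limma), while the sign of each difference held. The part of these shifts in the Art1 values was not tested.

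**Figure D5:**
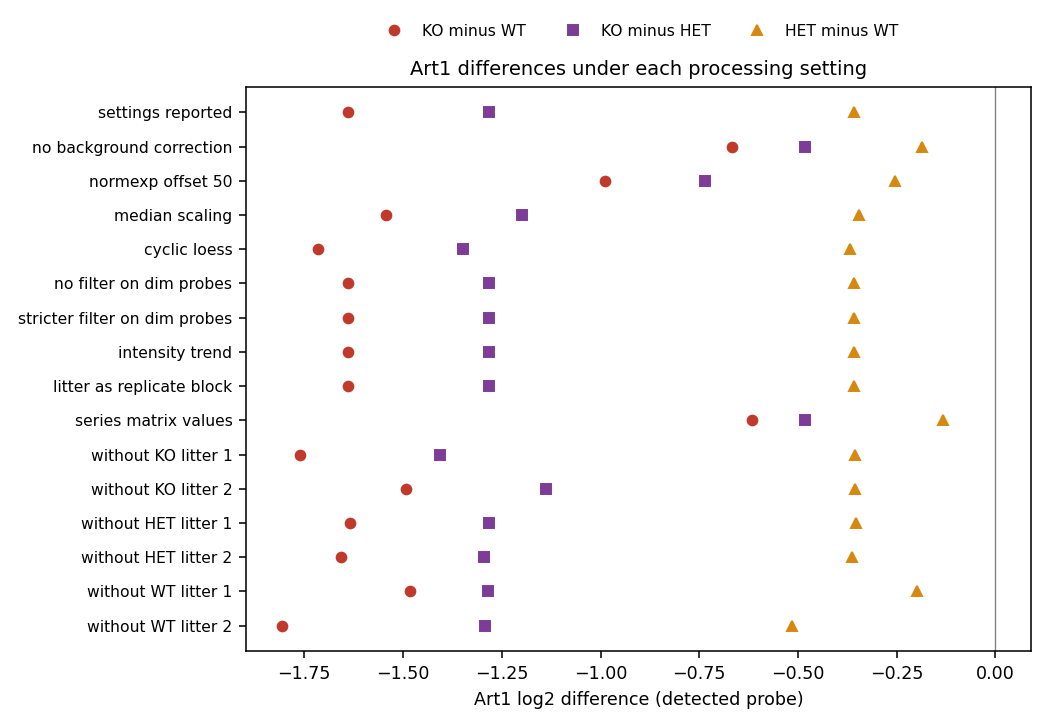
Log2 difference of the detected Art1 probe (x axis) for KO minus WT (circles), KO minus HET (squares) and HET minus WT (triangles) under the settings reported and each alternative (y axis). All points lie below 0, and KO minus WT runs from -0.62 with the series matrix values to -1.81 without the WT mouse of litter 2.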

How the data were processed

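The 10 Art probes were followed on 6 bead arrays of whole testis RNA, 1 per mouse, with RNeasy extraction and biotin-labelled cRNA per the labels' protocols. Per the file headers, the deposited table holds for each probe a bead intensity on a linear scale and a detection p-value. The deposited series matrix holds the same intensity multiplied by 1 factor per array (0.960 to 1.10). GenomeStudio is named in the submitters' processing notes. Summed signal per array ran from 15427284 to 17674449.

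Background was corrected with limma 3.58.1 in R 4.3.3 (neqc, offset 16, control spread inferred from the detection p-values), followed by quantile normalization and log2. Probes with a detection p under 0.05 on each array of some genotype were kept (20573), fitted together with genotype as the only term (lmFit, eBayes, two-sided; 3 residual and 6.23 prior degrees of freedom), and adjusted by Benjamini-Hochberg over all of them; a call is an adjusted p under 0.05. The fit was tested on simulated data. Gene symbols are as deposited or updated through RefSeq (GRCm38.p6). Of a listed gene the brightest kept probe was read. Named genes are the Art probes, H3f3b, the called genes of a list, at most 4, taken by smallest p, the 5 nearest profiles to Art1 and its 5 neighbours on each side; other list members were named after their values were seen. The members and lists were chosen with earlier results of these data known.

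Mice with the same number are littermates per the labels, which pairs them across genotypes. Litter differences correlated across probes at 0.134 for KO and WT, 0.168 for KO and HET and 0.0909 for HET and WT. Each mouse is a separate animal. The number of arrays limits the precision. Alternatives covered background, scaling, filter, variance trend, litter as a block, the series matrix and leaving out each mouse.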

Additional observations from a re-analysis of the deposited data

How the results depend on the processing

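For Art1, KO minus WT moved to -0.67 without background correction, -0.99 with normexp at offset 50 and -0.62 with the series matrix values, and KO minus HET to -0.48, -0.74 and -0.48; median scaling (-1.54 and -1.20) and cyclic loess (-1.72 and -1.35) stayed within 1 SD of the reported values. Without 1 mouse, KO minus HET ran from -1.41 to -1.14. HET minus WT stayed negative and uncalled under all 15 alternatives (-0.52 to -0.13; limma adjusted p 0.426 to 0.818; 0.426 with litter as a replicate block, which changed no call of a tested Art probe).

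For the other Art probes, 0 of 177 alternative values passed the test and 21 had the opposite sign to the reported one. Art3 probe 1 turned to -0.055 (median scaling), -0.053 (cyclic loess) and -0.029 (series matrix) in KO against WT and to -0.0092 (median scaling) in HET against WT. Art4 turned to 0.0038 in KO against WT with the series matrix. Art5 turned to -0.0046 (cyclic loess) in KO against WT, and to -0.048 (median scaling), -0.013 (cyclic loess) and -0.0081 (series matrix) in HET against WT. Without 1 mouse, Art3 probe 1 ran from -0.029 to 0.034 in KO against WT, -0.14 to 0.033 in KO against HET and -0.032 to 0.14 in HET against WT. Art3 probe 2 ran from -0.24 to 0.12 in HET against WT. Art4 ran from -0.16 to 0.011, -0.28 to 0.0094 and -0.085 to 0.21 in the same 3 comparisons, and Art5 from -0.028 to 0.087 in KO against HET and -0.038 to 0.078 in HET against WT. The stricter filter left Art4 out. At every Art probe, Art1 included, changes of filter, variance trend or litter block repeat the reported difference, so their sign was fixed in advance.

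The background share of called probes depended on the setting. In KO against WT, 1412 probes became 2854 without background correction, 2782 with offset 50, 528 without the filter, 2784 with an intensity trend and 4292 with the series matrix. Called higher were 32.6% as reported, 58.4% with median scaling (median difference of the kept probes 0.12), 44.5% without background correction, 42.8% with offset 50, 68.4% with the series matrix and 23.2% with cyclic loess, and 14.9% to 28% without 1 mouse. Without 1 mouse the count ran from 25 (without KO of litter 1) to 974 (without HET of litter 1), with 27 without WT of litter 2, 172 without WT of litter 1, 222 without KO of litter 2 and 819 without HET of litter 2. In KO against HET, 23 became 780, 700, 246 (median scaling), 2 (no filter), 866 (trend), 65 (litter as a replicate block) and 1685 (series matrix), and 2 to 10 without any 1 mouse. In HET against WT, 0 became 2 without background correction, 4 with offset 50, 5 with median scaling, 4 with the trend and 17 with the series matrix, and 0 to 1 without 1 mouse. Signal over background limits Art1, Art4 and the undetected probes.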
